A study of Homo sapiens with 4 samples.

Results

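The 10 HIF target genes were *CA9*, *VEGFA*, *ADM*, *NDRG1*, *BNIP3*, *EGLN3*, *PDK1*, *LDHA*, *SLC2A1* and *ANKRD37*. They were chosen by name as textbook targets of the hypoxia-inducible factors, out of 57820 annotated genes. The rule used none of their measured values, but earlier results of these data were known when the genes were chosen. They were read in 4 RNA-seq libraries of untreated HAP1 cells, a nearly haploid human line derived from a leukaemia. The double knockout (dKO) libraries 1 and 2 lacked functional RING1A and RING1B, the enzymes of Polycomb repressive complex 1 that place ubiquitin on histone H2A. The triple knockout (tKO) libraries 1 and 2 lacked both enzymes and also BAP1, the enzyme that removes this ubiquitin, so that all 4 libraries shared the loss of RING1A and RING1B. A STOP cassette had been inserted into *BAP1* and *RING1A* and clones picked, *RING1B* knockout HAP1 cells had been bought in, and the methods call the libraries of a condition independent biological replicates without saying whether they were separate clones.

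The hypoxia-inducible factors HIF1 and HIF2 each pair an unstable alpha subunit with the stable partner ARNT. In cells with oxygen, prolyl hydroxylases of the EGLN family modify the alpha subunit, the VHL protein binds the modified form, and the ubiquitin ligase built from VHL, elongins B and C, CUL2 and RBX1 sends it for degradation. When oxygen or VHL is lost the alpha subunit accumulates, binds short ACGTG or GCGTG sequences with ARNT, and raises genes of glucose use, acid export, vessel growth and mitochondrial turnover. The question asked here was whether these targets differed in tKO 2, the library in which the part of chromosome 3 that holds *VHL* was expressed at about 52.8% of the dKO level.

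Libraries held between 16054590 and 18455410 counts in genes, with between 84.3% and 84.9% of reads uniquely mapped, and 3 counts in a library corresponded to between 0.163 and 0.187 CPM, the count scaled to the library total. *BAP1*, as a check of the labels, had 2046 and 2010 counts in dKO 1 and 2, and 158 and 107 counts in tKO 1 and 2. RNA of the genes of RING1A (*RING1*; 12, 17, 12 and 13 counts) and RING1B (*RNF2*; 1421, 1561, 1262 and 1102 counts in the same order) did not check the labels, since no library with these genes intact was compared, and *RNF2* RNA was still counted in all 4 libraries. In tKO 2, 358 tested genes between *CHL1* and *ARHGEF3* on chromosome 3 (GRCh37, 238446 to 57113357), a stretch that also holds *BAP1*, stood at -0.92 on the log2 scale relative to dKO (median over genes). In tKO 1 it was 131 tested genes of chromosome 10 (176028 to 38439221, *ZMYND11* to *ZNF37A*) that were lower, with a median log2 difference of -0.97. The bounds of these stretches had been set on these libraries. None of the 10 target genes lies in either stretch. Of the defining markers of blood cells, the lineage HAP1 derives from, 5 of 5 had at most 5 counts in every library, with summed levels of 0.0546 to 0.165 CPM in dKO and 0.246 to 0.371 CPM in tKO. Summed fibroblast markers lay between 108 and 116 CPM in dKO and between 90.7 and 104 CPM in tKO. Most of this was *PDGFRA* (97.6, 104, 91.3 and 79.9 CPM in dKO 1, dKO 2, tKO 1 and tKO 2), with *COL1A2* at 0 and *DCN* at no more than 1 count. Summed epithelial markers lay between 23.4 and 23.8 in dKO and between 19.1 and 23.6 in tKO. Nearly all of this was *KRT18* (22.4, 22.7, 22.8 and 18.5 CPM), with *EPCAM* at 0 and *CDH1* at no more than 2 counts. The endothelial sum was *KDR* alone, between 1.86 and 3.97 in dKO and between 2.72 and 4.25 in tKO, with *CDH5* at 0 and *PECAM1* not matched.

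*VHL* itself (GRCh37 chr3:10183462-10195351, plus strand) had 2069 and 2188 counts in the dKO pair, 1893 in tKO 1 and 853 in tKO 2, or 113, 121, 117 and 52.8 CPM on TMM library sizes. Only tKO 2 stood apart, and the other 3 libraries lay close together. The *VHL* level of tKO 2 was 45.2% of the dKO mean (log2 difference -1.14, SE 0.12), and that of tKO 1 was 99.9% of it. This is a description with no test, because tKO 2 was singled out for its low expression of this part of chromosome 3. In the single-library comparisons that follow, each tKO library was set against the dKO pair by limma. The pair left 1 residual degree of freedom, and the moderated fit took the spread of every gene from the trend of spread with level in that pair. The lone library is thereby assumed to vary like the pair, the test compares libraries and not genotypes, and its p-values can be too small. The comparison of the genotypes, by contrast, set both tKO against both dKO libraries.

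Levels of the target genes differed widely. Per kb of the canonical transcript, *LDHA* was the most abundant, with a mean over the 4 libraries of 446 CPM per kb. *BNIP3* followed at 21.4, *SLC2A1* at 17.4, *VEGFA* at 15.5, *EGLN3* at 6.10, *ANKRD37* at 4.12, *ADM* at 3.49, *PDK1* at 3.45 and *NDRG1* at 0.383 CPM per kb. The ranges of *SLC2A1* and *VEGFA* overlapped, as did those of *ANKRD37* and *ADM* and of *ADM* and *PDK1*, so that these neighbours were not ordered beyond their spread. The place of *PDK1* depends on a long annotated transcript of 14072 bases. The plot of CPM by library shows these levels.

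**Figure D1:**
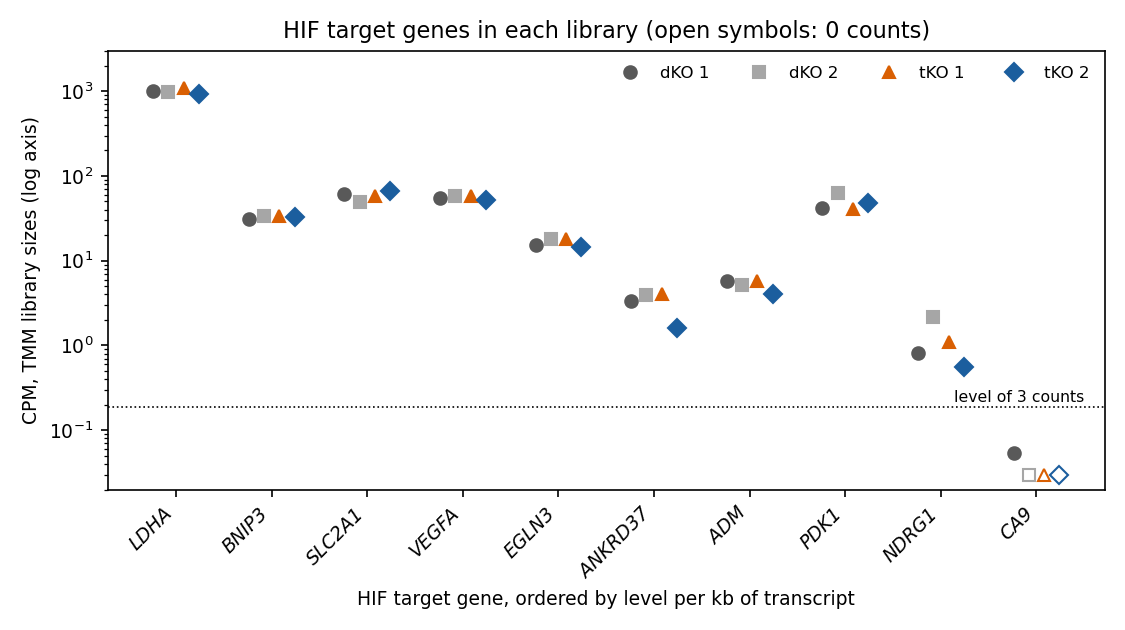
CPM of each of the 10 HIF target genes in dKO 1, dKO 2, tKO 1 and tKO 2 on a log axis, genes ordered by level per kb of transcript. Open symbols mark libraries with 0 counts and are drawn at the bottom of the plot, and the dotted line is the level of 3 counts. *LDHA* lies between 925 and 1092 CPM and *CA9* below the level of 3 counts in all 4 libraries, and the tKO 2 symbol is set apart from the other 3 for *ANKRD37*.

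*CA9*, the cell-surface carbonic anhydrase IX that is among the most strongly hypoxia-induced genes, had 1 count in dKO 1 and 0 counts in dKO 2, tKO 1 and tKO 2. A count of 0 allows a level of up to 0.187 CPM in tKO 2, so *CA9* RNA was not detectable at this depth in the library with low *VHL*, nor in the others. It failed the filter for testing (CPM above 0.5 in at least 2 libraries), which left 9 of the 10 target genes among 15136 tested genes. These floors cover counting error only.

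In the comparison of genotypes, 0 of 9 target genes passed an adjusted p of 0.05, and 0 of 9 had an unadjusted p below 0.05 in limma, where 0.0132% of all tested genes passed the adjusted threshold (2 genes). DESeq2, the edgeR quasi-likelihood test and limma-voom also passed 0 of them. The dKO and tKO values overlapped for 9 of 9 target genes, while they did not overlap for 31.7% of all tested genes. The median log2 fold change of the 9 genes was -0.05, beside -0.0014 for all tested genes. Upper bounds of the 95% intervals of the log2 fold change lay below 1 for 9 of 9, the highest being 0.61 for *NDRG1*, a 1.52-fold difference.

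When tKO 2 alone was set against dKO, 1 of 9 target genes passed the adjusted threshold and it was lower, beside 8.1% of all tested genes in either direction, 5.85% lower and 2.25% higher. Of the 9 log2 differences 7 were negative and 2 positive, with a median of -0.11 beside 0.01 for all tested genes. The median was -0.32 when dKO 1 was left out and -0.07 when dKO 2 was left out. The tKO 2 value lay below those of the other 3 libraries for 6 of the 9 genes, above them for 1 and between them for 2; over all tested genes tKO 2 was lowest for 30.3% and highest for 31.2%. No target gene was called higher. Upper bounds of the 95% intervals again lay below a log2 difference of 1 for 9 of 9 genes, the highest being 0.52 for *SLC2A1*, which is 1.43-fold. In tKO 1, where *VHL* was at the dKO level, 0 of 9 target genes passed against dKO, beside 2.87% of all tested genes, and the median log2 difference was 0.08; 1 gene, *PDK1*, had an unadjusted p below 0.05. In the direct comparison of tKO 2 with tKO 1, 1 of 9 passed, beside 9.53% of all tested genes, and the median was -0.24.

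**Figure D2:**
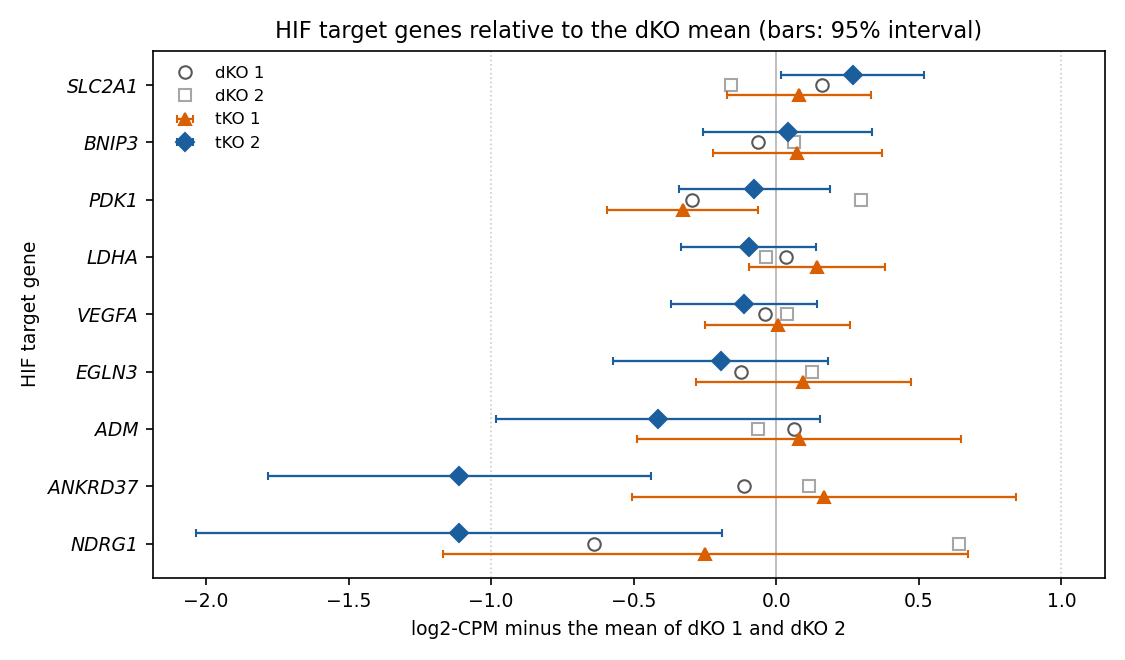
Difference in log2-CPM from the mean of dKO 1 and dKO 2 for the 9 tested HIF target genes, with tKO 1 (triangles) and tKO 2 (filled diamonds) shown with 95% intervals and the dKO libraries as open symbols. The tKO 2 interval lies wholly below 0 for *ANKRD37* and *NDRG1* and wholly above 0 for *SLC2A1*, and dotted lines mark differences of -1 and 1. The intervals are not adjusted for the number of genes tested, and *NDRG1* and *SLC2A1* did not pass the adjusted threshold.

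*ANKRD37*, a small ankyrin-repeat protein gene (GRCh37 chr4:186317175-186321782, plus strand), was the gene that passed. It had 61 and 71 counts in dKO, 66 in tKO 1 and 26 in tKO 2, or 3.33, 3.92, 4.07 and 1.61 CPM. The tKO 2 value lay well below the other 3, which were close together. In tKO 2 it was 44.4% of the dKO mean (log2 difference -1.11, SE 0.34, 95% interval -1.78 to -0.44, adjusted p = 0.0187), and against tKO 1 the log2 difference was -1.28 (adjusted p = 0.0177). The call against dKO was lost with limma-voom (adjusted p = 0.0924), the edgeR quasi-likelihood test (0.0537), DESeq2 (0.852), limma without a trend (0.110) and no filter (0.278), and the adjusted p over 9 alternatives ran from 0.0148 to 0.852. In the genotype comparison its log2 fold change was -0.47 (SE 0.44), and tKO 1 lay slightly above both dKO libraries. On the opposite strand *ANKRD37* overlaps *UFSP2*, which had 685, 649, 503 and 565 counts in dKO 1, dKO 2, tKO 1 and tKO 2. The counts used here were strand-specific. With unstranded counts the log2 difference of *ANKRD37* from dKO was -0.10 in tKO 1 and -1.30 in tKO 2.

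The promoters of the target genes were read for the ACGTG and GCGTG core sequences that HIF binds, on both strands, in windows of 300 bases from 250 before to 50 after the transcript start given by RefSeq (GRCh38 table). A CACGTG counts on both strands, and it is also the E-box bound by other factors. Entries were found for 8 of the 10 genes, with 10 promoters; *VEGFA* and *NDRG1* have none in the table. Of these 10 promoters 8 held at least 1 match, as did 48.5% of 35116 promoters in the table. *BNIP3* had 6 matches, *ANKRD37* 3, and *EGLN3* 0. A match is a description of letters and not a binding site. The promoters below are of the called gene *ANKRD37* (3 matches), of the most abundant gene *LDHA* (6 matches; its other promoter in the table, not printed, has 1), of *SLC2A1*, the gene that was highest in tKO 2 (1 match), and of the undetected gene *CA9* (1 match). Capitals mark the matches and each is printed 5′ to 3′ along the gene. Their positions in GRCh37, found by exact match, are chr4:186317745-186318044 (plus strand), chr11:18415860-18416159 (plus strand), chr1:43424490-43424789 (minus strand) and chr9:35673675-35673974 (plus strand), in that order.
ANKRD37: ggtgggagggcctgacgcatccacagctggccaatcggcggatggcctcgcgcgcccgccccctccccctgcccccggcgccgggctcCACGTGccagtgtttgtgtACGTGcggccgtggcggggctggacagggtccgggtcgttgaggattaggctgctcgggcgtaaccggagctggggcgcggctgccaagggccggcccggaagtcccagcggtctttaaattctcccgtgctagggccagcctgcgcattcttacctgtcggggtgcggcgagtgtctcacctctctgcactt
LDHA: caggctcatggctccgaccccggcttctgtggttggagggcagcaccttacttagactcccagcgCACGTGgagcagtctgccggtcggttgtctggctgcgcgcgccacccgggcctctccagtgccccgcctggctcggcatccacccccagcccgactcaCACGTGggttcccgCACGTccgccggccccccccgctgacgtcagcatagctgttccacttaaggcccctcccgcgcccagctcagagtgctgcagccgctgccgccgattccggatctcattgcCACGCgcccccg
SLC2A1: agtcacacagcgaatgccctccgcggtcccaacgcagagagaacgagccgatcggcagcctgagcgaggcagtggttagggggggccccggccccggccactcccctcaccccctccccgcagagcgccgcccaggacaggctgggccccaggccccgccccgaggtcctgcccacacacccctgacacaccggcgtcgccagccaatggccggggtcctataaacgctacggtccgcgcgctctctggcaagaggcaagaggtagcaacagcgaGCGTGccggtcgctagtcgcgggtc
CA9: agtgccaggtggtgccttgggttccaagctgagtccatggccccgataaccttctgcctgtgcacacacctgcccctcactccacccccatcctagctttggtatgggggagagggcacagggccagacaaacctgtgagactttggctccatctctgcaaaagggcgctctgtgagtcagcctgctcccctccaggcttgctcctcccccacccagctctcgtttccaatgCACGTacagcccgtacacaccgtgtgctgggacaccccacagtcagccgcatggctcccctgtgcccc

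Genes of glucose uptake and pyruvate handling came next. *SLC2A1*, the glucose transporter GLUT1, had 1128 and 893 counts in dKO, 945 in tKO 1 and 1071 in tKO 2, or 61.6, 49.3, 58.2 and 66.3 CPM. It was the only one of the 9 with its highest value in tKO 2, but the dKO libraries differed from each other by 0.32 on the log2 scale, more than tKO 2 differed from their mean (log2 difference 0.27, SE 0.13, 95% interval 0.02 to 0.52, unadjusted p = 0.0378 and adjusted p = 0.237 in limma). *LDHA*, the lactate dehydrogenase subunit that turns pyruvate into lactate, had 1013 and 966 CPM in dKO, 1092 in tKO 1 and 925 in tKO 2. The lowest and the highest *LDHA* values were both those of tKO libraries, with a log2 difference of -0.10 (SE 0.12, adjusted p = 0.773) for tKO 2 and 0.14 for tKO 1. *PDK1*, the kinase that shuts off entry of pyruvate into mitochondria, had 764 and 1142 counts in dKO, 662 in tKO 1 and 785 in tKO 2, or 41.7, 63.0, 40.8 and 48.6 CPM. Its dKO libraries stood further apart than any tKO value from their mean, and the log2 difference was -0.08 (SE 0.14, adjusted p = 0.857) in tKO 2 and -0.33 (adjusted p = 0.261) in tKO 1.

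Genes of secreted factors were also not called. *VEGFA*, which encodes the main growth factor of blood vessels, had 1018 and 1062 counts in dKO, 929 in tKO 1 and 852 in tKO 2, or 55.6, 58.6, 57.2 and 52.7 CPM. The tKO 2 value was the lowest of the 4 by a small margin (log2 difference -0.11, SE 0.13, 95% interval -0.37 to 0.14, adjusted p = 0.746). *ADM*, the gene of the vasodilator peptide adrenomedullin, had 105 and 95 counts in dKO, 94 in tKO 1 and 66 in tKO 2, or 5.73, 5.24, 5.79 and 4.09 CPM. Here too tKO 2 was lowest and the other 3 were close together (log2 difference -0.41, SE 0.29, 95% interval -0.98 to 0.15, adjusted p = 0.505).

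The remaining genes act in mitochondrial turnover, oxygen sensing and differentiation. *BNIP3*, a receptor for the removal of mitochondria, had 566 and 611 counts in dKO, 551 in tKO 1 and 536 in tKO 2, or 30.9, 33.7, 34.0 and 33.2 CPM. Its tKO 2 value lay among the others (log2 difference 0.04, SE 0.15, 95% interval -0.26 to 0.34, adjusted p = 0.941). *EGLN3*, a prolyl hydroxylase that is both a target of HIF and part of its control, had 281 and 331 counts in dKO, 290 in tKO 1 and 236 in tKO 2, or 15.3, 18.3, 17.9 and 14.6 CPM, and tKO 2 lay just below dKO 1 (log2 difference -0.19, SE 0.19, adjusted p = 0.690). The annotation has *EGLN3* overlapping *SPTSSA* on the same strand. *NDRG1*, a stress- and differentiation-linked gene, had few reads, with 15 and 39 counts in dKO, 18 in tKO 1 and 9 in tKO 2. The log2 difference of *NDRG1* in tKO 2 (-1.11, SE 0.47, adjusted p = 0.147) was as large as that of *ANKRD37*, but its dKO libraries differed by 1.28 on the same scale.

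The machinery that controls HIF was compared gene by gene to place *VHL* among its partners. Of 16 listed genes 15 were tested, and *HIF3A* had 0 counts in all 4 libraries. In tKO 2, 3 of 15 were lower (*VHL*, *P4HTM* and *EPAS1*), beside 5.85% of all tested genes, and 0 higher, beside 2.25%. *VHL* and *P4HTM* lie in the chromosome 3 stretch, and outside both stretches 1 of 12 was lower, beside 4.16%. In tKO 1, 1 of 15 was lower (*CUL2*), beside 2.03% of all tested genes called lower there, and 0 were higher, beside 0.832%. In the genotype comparison 0 of 15 passed, and 1 had an unadjusted p below 0.05. *CUL2*, the scaffold of the VHL ligase, lies in the chromosome 10 stretch. Both stretches were set on these libraries, so the low values of *VHL*, *P4HTM* and *CUL2* are a description and no test. *CUL2* had 1685 and 1644 counts in dKO, 696 in tKO 1 and 1436 in tKO 2. It was thus tKO 1 that was low for *CUL2*, at 47.0% of the dKO mean (log2 difference -1.09), as tKO 2 was for *VHL*. Each tKO library therefore had 1 subunit of the ligase at a reduced RNA level, and they were different subunits. The other subunits *ELOB*, *ELOC* and *RBX1* had log2 differences between -0.07 and 0.13 in the tKO libraries and were not called.

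*EPAS1*, which encodes the HIF2 alpha subunit, had 263 and 330 counts in dKO, 255 in tKO 1 and 169 in tKO 2, or 14.4, 18.2, 15.7 and 10.5 CPM. The tKO 2 value was lowest, at 64.3% of the dKO mean (log2 difference -0.62, SE 0.20, adjusted p = 0.0295), but the direct comparison with tKO 1 did not pass (log2 difference -0.58, adjusted p = 0.103). The call against dKO was lost in limma-voom, in DESeq2, without a trend and without a filter. *HIF1A*, the HIF1 alpha subunit, was more abundant, at 258 and 260 CPM in dKO, 230 in tKO 1 and 241 in tKO 2. It was a little lower in both tKO libraries and not called, with a log2 difference of -0.11 (SE 0.11, adjusted p = 0.712) in tKO 2. *P4HTM*, a membrane-bound prolyl hydroxylase in the chromosome 3 stretch, was at 34.8% of the dKO mean in tKO 2 (539, 544, 400 and 167 counts; log2 difference -1.51), and it overlaps *WDR6* on the same strand. The hydroxylases *EGLN1* (log2 difference -0.28, adjusted p = 0.191) and *EGLN2* (0.17, adjusted p = 0.742) were not called in tKO 2. The same held for the asparaginyl hydroxylase *HIF1AN* (0.16), the partners *ARNT* (0.02) and *ARNT2* (-0.04), and the co-activators *CREBBP* (0.25) and *EP300* (0.05).

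**Figure D3:**
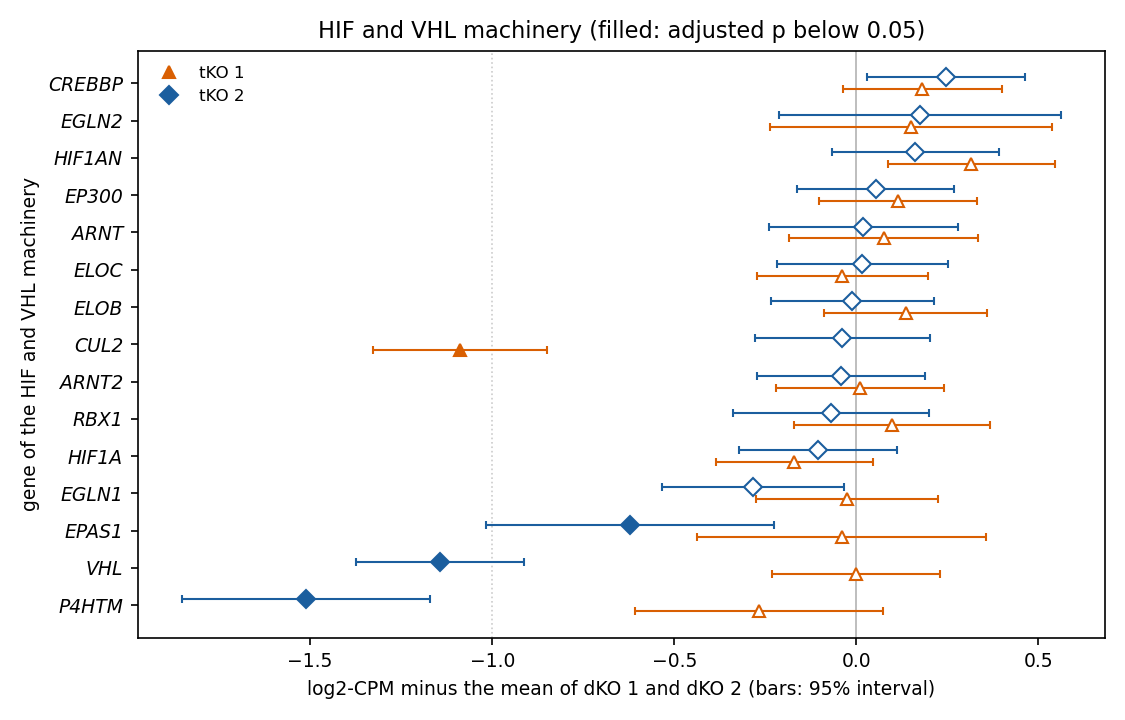
Difference in log2-CPM from the mean of dKO 1 and dKO 2 for 15 genes of the HIF and VHL machinery in tKO 1 (triangles) and tKO 2 (diamonds), with 95% intervals; filled symbols passed an adjusted p of 0.05 in limma. *VHL*, *P4HTM* and *EPAS1* are filled in tKO 2 and *CUL2* in tKO 1, and the dotted line marks a difference of -1. *VHL*, *P4HTM* and *CUL2* lie in the stretches set on these libraries, so their filled symbols are a description and no test.

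A longer list of 58 other HIF-regulated genes, of which 52 were tested, was read beside the 10 genes. Calls inside the reduced stretches are a description and no test, since the stretches were set on these libraries. In tKO 2, 1 of the 52 was higher and 10 were lower, beside 2.25% and 5.85% of all tested genes. Outside both reduced stretches the counts were 1 higher and 8 lower of 48, beside 2.3% higher and 4.16% lower among all tested genes outside them, and the median log2 difference was -0.07. The genotype comparison called 0 of 52 in limma, with 5 at an unadjusted p below 0.05, as had 538 of all 15136 tested genes. In tKO 1, 3 of 52 were called, all lower, beside 2.03% of all tested genes, and outside the stretches 1 of 48 was. Together with the machinery, tKO 2 called 14 of 67 pathway genes, beside 8.1% of all tested genes, and 4 of these lie in the chromosome 3 stretch. Fewer were called under some alternatives, fewest with no filter, without a trend and in DESeq2. The share of all tested genes called changed with the method as well, so the main share does not serve for these alternatives.

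By function, glycolysis and glucose transport had 0 higher and 3 lower of 19 in tKO 2, secreted and surface proteins 1 higher and 1 lower of 6, mitochondria and lipid 0 higher and 1 lower of 5, matrix and redox enzymes 0 of 6, and regulators 0 higher and 5 lower of 16. Beside these counts stand 2.25% of all tested genes higher and 5.85% lower, and 1 of the lower glycolysis genes (*PFKFB4*) and 1 of the lower regulators (*BHLHE40*) lie in the chromosome 3 stretch. *SLC16A3*, the lactate exporter MCT4, had 444 and 542 counts in dKO, 214 in tKO 1 and 34 in tKO 2. Both tKO libraries lay below both dKO libraries, tKO 2 at 7.78% (log2 difference -3.61, SE 0.22) and tKO 1 at 48.7% of the dKO mean (log2 difference -1.02, adjusted p = 1.9e-04), and the libraries differed from each other (log2 difference -2.58, adjusted p = 2.0e-22). The call in tKO 1 was lost in DESeq2, without a filter and in limma without a trend. That of tKO 2 against dKO was lost without a filter. The call of tKO 2 against tKO 1 was lost without a filter and in limma without a trend. The genotype fold change of -2.31 had an unadjusted p of 0.0171 and an adjusted p of 0.996 in limma. *SLC2A3*, the glucose transporter GLUT3, had 80, 88, 91 and 17 counts in the same order, low in tKO 2 alone (log2 difference -2.01). Its call there was lost with no filter, and the gene was not tested at CPM above 5. The near-identical paralogue *SLC2A14* makes the level of *SLC2A3* uncertain, since reads shared by both were not counted. *CA12*, another surface carbonic anhydrase, had 23, 16, 33 and 1 counts. With 1 count in tKO 2 its ratio to dKO was 5.79%, with an exact 95% counting interval of 0.143% to 34.2%. This interval leaves out variation between libraries. The call of *CA12* was lost with no filter, in DESeq2 and in limma without a trend, and the gene was not tested at CPM above 5.

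*TMEM45A*, a membrane protein gene, was the gene called higher in tKO 2, with 23, 29, 35 and 54 counts (log2 difference 1.17, SE 0.39, adjusted p = 0.0370). This call was lost with no filter, in DESeq2 and in limma without a trend, and the gene was not tested at CPM above 5. Its level in tKO 1 was also above both dKO libraries, and the tKO libraries were not shown to differ from each other (adjusted p = 0.514). Of listed genes in the reduced stretches, *PFKFB4*, a regulator of glycolytic flux, and *BHLHE40*, a transcriptional repressor, had log2 differences of -1.31 and -1.14 in tKO 2. *PFKP* and *PFKFB3*, also of the glycolytic pathway, lie in the chromosome 10 stretch and had -1.29 and -0.87 in tKO 1. The other genes lower in tKO 2, named after their values were seen, had log2 differences between -0.89 and -0.50. They were *DDIT4*, an inhibitor of mTOR signalling, *CITED2*, which competes with HIF for its co-activators, *KLHL24*, *ANKZF1* and *BNIP3L*, a relative of *BNIP3*. On the log2 scale dKO 2 minus dKO 1 was 0.50, -0.16, 0.57, 0.05 and 0.46 for these genes in the same order. *ANKZF1* was low in tKO 1 as well, at 77.6% of the dKO mean. Among mitochondrial and lipid genes the positive difference with the smallest p was that of *HILPDA* (0.07, adjusted p = 0.906), a lipid droplet protein gene. Among the collagen-modifying enzymes *PLOD2* (-0.28, adjusted p = 0.127) and *P4HA2* (0.15, adjusted p = 0.731) came nearest to the threshold in each direction without passing it.

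**Figure D4:**
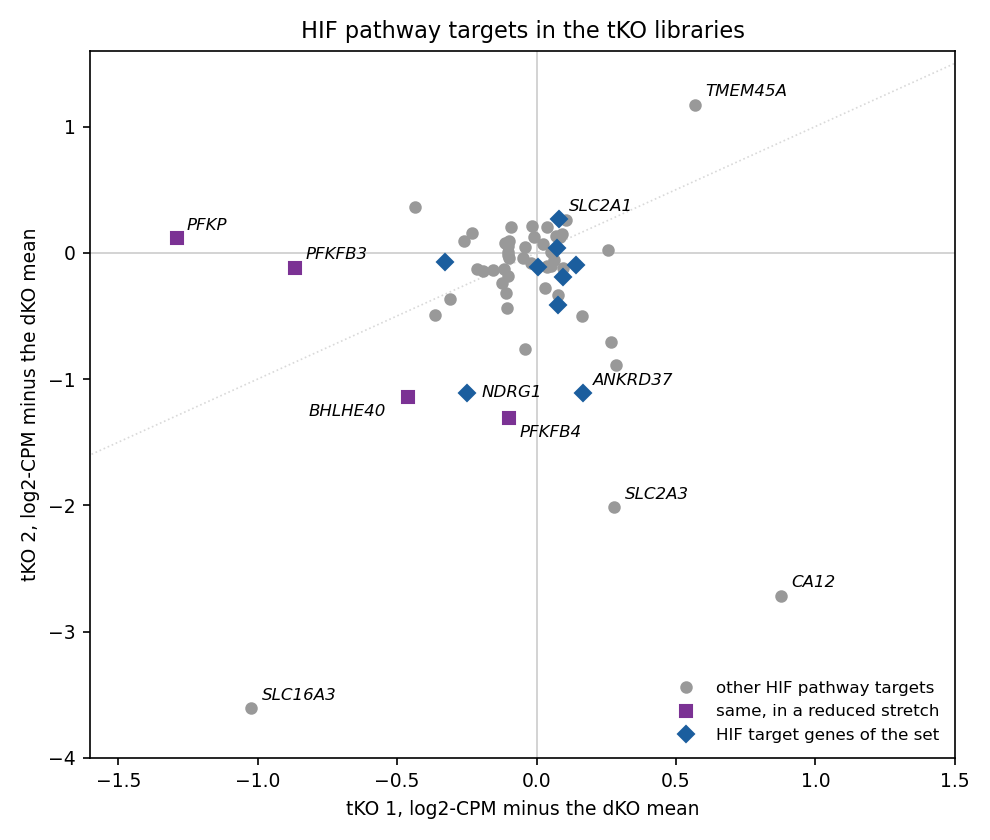
Difference in log2-CPM from the dKO mean in tKO 1 (horizontal axis) and tKO 2 (vertical axis) for 52 other HIF-regulated genes (circles, or squares where the gene lies in a reduced stretch) and the 9 tested HIF target genes (diamonds); the dotted line marks equal differences. Both axes share the dKO libraries as reference. *SLC16A3*, *CA12* and *SLC2A3* lie lowest in tKO 2, and *TMEM45A* is the gene farthest above 0 there.

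Genes of the integrated stress response, which can alter some of the same targets, were given as a reference. Of 6 such genes 0 passed between genotypes in limma, beside 0.0132% of all tested genes. An unadjusted p below 0.05 was found for 0 of the 6 and for 538 of all 15136 tested genes. The median log2 difference of the 6 genes in tKO 2 was -0.01, with values from -0.60 to 0.20. Whether a stress response was present was not tested. HIF protein and oxygen were not measured, and whether the loss of BAP1, the reduced stretches or the culture of each library had a part in the values of tKO 2 was not tested.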

How the data were processed

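Poly(A)-selected, stranded RNA-seq was available for 2 dKO and 2 tKO libraries of HAP1 cells, grouped by the genotype in the labels. Per the methods of the study, the authors trimmed reads with cutadapt (1.12) through Trim Galore (0.4.4), removed ribosomal reads with Bowtie (1.2), mapped to GRCh37 with STAR (2.5.2b), allowing 6 mismatches and 20 loci, and counted uniquely mapped reads over the exons of each annotated gene. The deposited values were raw counts per gene, not normalised and not pooled, so reads shared by near-identical genes were dropped. The strand column opposite to the gene was used; the other one took 4.01% to 4.24% of stranded reads. GENCODE release 44, lifted to GRCh37, gave symbols and positions.

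The fit kept genes whose CPM exceeded 0.5 in 2 or more libraries. Log2-CPM values (TMM in edgeR 4.0.16, prior count of 2) were fitted with limma (3.58.1) in R (4.3.3), with empirical Bayes moderation and a trend, once by genotype and once with tKO 1 and tKO 2 as separate levels. P-values were two-sided and adjusted by the Benjamini-Hochberg method over all 15136 tested genes. A gene was called at an adjusted p below 0.05. Fold changes understate those of genes with few counts. The filter, TMM, linear model and thresholds follow the study, which also asks for an absolute log2 fold change above 1; the prior count and trend were chosen here. The fit was tested on simulated data. The simulation gave every library the spread of the dKO pair. It therefore cannot show whether a lone tKO library varies like that pair.

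The genes named were the 10 targets, the machinery list, genes of the other lists past both thresholds in tKO or tKO 2 against dKO (where a list had none, the smallest p in each direction), and listed genes in the reduced stretches. Members and lists were chosen with earlier results of these data known. Alternatives were RLE size factors, library totals, a prior count of 0.25, unstranded counts, no filter, a CPM minimum of 5, DESeq2 (1.42.0), edgeR's quasi-likelihood fit, limma-voom, no trend, a replicate block, leaving out each replicate, and leaving out genes of the stretches. For the other pathway genes in tKO 2, the alternatives were added after the data were seen.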

Additional observations from a re-analysis of the deposited data

How the results depend on the processing

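Of the 9 tested target genes, the count called in tKO against dKO was 0 under every alternative run except those leaving out 1 library, where it ran from 0 to 1 (1 without tKO 1, when *ANKRD37* was called). Deviations of same-numbered libraries correlated at 0.0581 over 15136 genes. With 2 libraries per group this cannot show whether the libraries were prepared in pairs. With the replicate block 0 target genes were called, and 13 genes in all beside 2 without it. For tKO 2 against dKO the count of 1 went to 0 with no filter, CPM above 5 (*ANKRD37* not tested), limma-voom, edgeR quasi-likelihood, DESeq2 and limma without a trend. For tKO 2 against tKO 1 it went from 1 to 0 with no filter, CPM above 5, unstranded counts, DESeq2 and no trend. Without a dKO library these comparisons have no residual degrees of freedom and were given as values: the median log2 ratio of tKO 2 ran from -0.319 to -0.0748. Among other pathway genes, leaving out those in the stretches took the calls from 4 to 1 in tKO 1 against dKO and from 13 to 7 in tKO 2 against tKO 1. In tKO 2 against dKO fewer pathway genes were called under some alternatives, fewest with no filter, without a trend and in DESeq2. The share of all tested genes called also changed with these settings.

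Some directions reversed. Leaving out 1 library, the genotype log2 fold change ran from -0.113 to 0.00501 for *VEGFA*, -0.414 to 0.0785 for *ADM*, -0.00966 to 0.119 for *BNIP3*, -0.195 to 0.0942 for *EGLN3*, -0.503 to 0.0944 for *PDK1*, -0.0963 to 0.143 for *LDHA*, -1.11 to 0.17 for *ANKRD37*, -2.02 to 0.28 for *SLC2A3* and -2.73 to 0.88 for *CA12*; for the last 3 the positive value was without tKO 2. In tKO 1 against dKO, *VEGFA* was -0.0116 with library totals, -0.00256 with no filter and -0.00144 with unstranded counts, and *ANKRD37* was -0.10 with unstranded counts. The causes were not tested. Depth limits *CA9*, *CA12* and *NDRG1*, which had few counts.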
